A study of Mus musculus with 32 samples.

Results

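The age change from 1.5 to 6 months in the spinal cord of CHMP2Bintron5 transgenic mice was read from 9 RNA-seq libraries, 4 at 6 months and 5 at 1.5 months, of 32 in the whole series. The libraries were chosen by their labelled genotype and age alone. All mice carried a mixed background of the strains FVB/N, C57BL/6 and DBA/2, and the transgenic ones carried 12 copies of the transgene. The labels name neither the promoter that drives the transgene nor the sex of the mice. Non-transgenic controls of the same background were used for comparison, 5 at 6 months and 6 at 1.5 months. The design text gives 4 transgenic samples at 1.5 months, and the labels, which were followed, give 5. The labels do not say whether each library came from a separate animal, so the p-values measure a spread between libraries. In the tests of single genes that spread was read from all 32 libraries of the series, unless stated otherwise.

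The protein CHMP2B takes part in ESCRT-III, a complex that pinches off membrane buds at endosomes and other organelles. The intron5 form ends early through retention of an intron and is linked to frontotemporal dementia. In the spinal cord the oligodendrocytes, which wrap axons in myelin, make large amounts of cholesterol and galactolipids while myelin is laid down in young animals. Microglia, the resident macrophages, can pass from a resting state to one marked by Trem2, Clec7a and Itgax, often called disease-associated, and astrocytes can raise the filament gene Gfap when they react.

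Library totals ran from 42 to 64.1 M counts at 1.5 months and from 36.2 to 72 M at 6 months in transgenic cord. Mitochondrial transcripts took 3.49 ± 0.24% of counts at 6 months (SD, n = 4) and 3.75 ± 0.35% at 1.5 months (n = 5), a difference within the spread of libraries by an exact permutation test (two-sided, p = 0.238). Markers of spinal cord were present: in each of the 9 libraries Gfap had at least 1140.5 CPM and Mal at least 413 CPM. CPM, counts per gene brought to a common scaled library size, is the level used throughout. The 6-month replicate 4 had 4.81 CPM of Xist, the transcript of the inactive X chromosome in females, against at least 802.7 CPM in the other 8, so sex and age cannot be told apart for this library. Acta1, a gene of skeletal muscle, reached 78.0 CPM in the 1.5-month replicate 3 and 32.1 CPM in the 6-month replicate 1, and no muscle gene is described below.

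Replicates 2 and 3 at 6 months held transcripts of the dorsal root ganglion, the cluster of sensory neuron cell bodies beside the cord. Avil, which encodes the actin regulator advillin, was at 59.9 and 146 CPM in these libraries, at 0.830 and 0.966 CPM in replicates 1 and 4, and at 1.10 to 1.41 CPM at 1.5 months. Scn11a, a sodium channel of pain-sensing neurons, was at 27.0 and 69.3 CPM against 0.106 and 0.148 CPM. Mrgprd, a receptor of non-peptidergic nociceptors, was at 15.5 and 40.4 CPM against 0.0638 and 0.107 CPM. In all of these genes replicate 3 stood above replicate 2, and the other 6-month libraries lay within or below the 1.5-month range.

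Genes of this kind were treated apart. The rule took genes that were higher in both of these libraries than in the other 7 transgenic ones, with a mean of the pair at least 2 times the higher of 6-month replicates 1 and 4 after 0.1 CPM was added to each, and it set apart 157 genes. Of the 24 tested sensory neuron markers, 18 were set apart, beside 157 of all 20015 genes tested. The rule reads these same libraries, so the counts describe them and are no separate test of their source. The other genes set apart are not on that marker list. Another gene set apart was Slc17a7, a vesicular glutamate transporter (17.3 and 30.3 CPM against 0.340 and 0.0134). Ngfr, the low-affinity neurotrophin receptor, was at 45.0 and 94.8 CPM in replicates 2 and 3, and at 8.001 and 7.73 CPM in replicates 1 and 4, where the 1.5-month range was 5.87 to 11.9 CPM. Prph, the peripheral neuron filament peripherin and 1 of the 18 markers set apart, was at 180 and 291 CPM against 81.1 and 89.5 CPM.

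**Figure D1:**
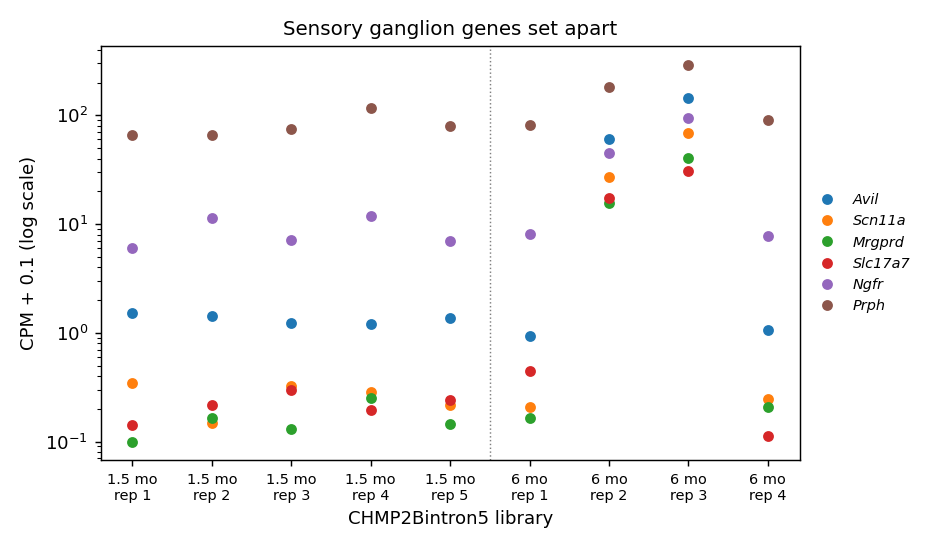
CPM plus 0.1 (log axis) of 6 genes that were set apart, in each of the 9 transgenic libraries, with 1 colour per gene. Replicates 2 and 3 at 6 months stand above the other 7 libraries for every gene drawn, with Avil at 59.9 and 146 CPM.

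Chmp2b, Thy1 and Chrna2 were read in every library to check the labels, and none was called between the ages. Chmp2b was at 83.1, 90.0, 91.0, 65.1 and 79.6 CPM at 1.5 months and at 66.3, 73.0, 66.0 and 57.6 CPM at 6 months, a log2 change of -0.31 ± 0.15 (SE, adjusted p = 0.183), against 63.7 ± 7.60 (SD, n = 6) and 54.2 ± 14.7 CPM (n = 5) in controls. Whether reads of the transgene count toward Chmp2b depends on its sequence, which is not known here. Thy1, a cell surface protein of neurons, had a mean of 1442 CPM at 1.5 months and 1511 CPM at 6 months (adjusted p = 0.756), against 566 ± 85.9 and 788 ± 190 CPM in controls. Chrna2, a nicotinic receptor subunit, had 0.558 to 0.802 CPM at 1.5 months and 0.520 to 0.778 CPM at 6 months (adjusted p = 0.924), against 3.21 ± 0.60 and 2.72 ± 0.60 CPM in controls.

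Of 20015 genes tested, 519 rose and 440 fell between 1.5 and 6 months in transgenic cord, 2.59% and 2.2% of genes (4.79% in either direction). A gene was called, that is counted as risen or fallen, at an adjusted p under 0.05 in edgeR's quasi-likelihood test with Benjamini-Hochberg adjustment, and every adjusted p below is from that test. A log2 change of 1 is a 2-fold change. Of the genes called, 146 rose and 48 fell at least 2-fold, and 78 of those 146 belonged to the genes set apart. Outside the set-apart genes, 430 rose and 440 fell. The number of calls depended on single libraries. It was 394 and 399 without 1.5-month replicates 2 and 3, 4322 without 1.5-month replicate 4, 431 and 328 without 6-month replicates 2 and 3 in turn, and 87 without that pair together. When only the 9 libraries set the spread between replicates, 63 genes were called. Of the 870 called genes not set apart, 81 were still called without the pair. The fit without the pair keeps only replicates 1 and 4 at 6 months, and replicate 4 is the library low in Xist. In it 868 of the 870 kept their direction, with a median absolute log2 change of 0.43 against 0.50. Replicates 1 and 4 were also part of the fit that called these genes, so this is no separate test. Of the 51 called genes described below that were not set apart, 32 were still called from the 9 libraries alone and 35 without the pair. Some of the 51 were named because they were also called without the pair, so the 35 is partly fixed by that choice. Not called from the 9 libraries alone were Pmp22, Acss2, Elovl6, Lpl, Trem2, Mpeg1, Ccl4, Kcnj10, C4b and Chodl. The others lost there were Col3a1, Zbtb42, Tekt1, H2-Q4, H2-T23, H2-M3 and the neurofilament genes Nefl, Nefm and Nefh.

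Age changes followed the GC content of transcripts in both genotypes. The median log2 change ran from -0.19 to 0.40 in transgenic cord, from the lowest to the highest of 10 equal GC bins, and from -0.12 to 0.36 in controls. After a correction for GC content and length 949 genes rose and 591 fell, and 50 of the 51 genes above were still called.

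A large share of the change was also seen in controls. In control cord 984 genes rose and 1074 fell between the same ages, 4.92% and 5.37% of genes (2058 calls in all, and 4437 with replicate number as a block). Of the 870 transgenic calls not set apart, 347 were called in the same direction in controls and 7 in the opposite direction, and with replicate number as a block in the control fit these were 443 and 4. Control calls given below are from the fit without the block, and blocked ones stand beside them where a count given moved by over 1.5 times or a named call changed. The difference between the age changes of the genotypes was called for 31 genes, 0.155% of those tested. Of these, 8 were set apart, 8 others were higher in transgenic cord and 15 lower. None was called without 6-month replicates 2 and 3, where the lowest adjusted p was 0.0520 and 1336 genes had an unadjusted p under 0.05.

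Genes of myelin and oligodendrocytes fell. Of 25 such genes tested, 13 fell and none rose in transgenic cord, where 2.2% of all genes fell. The median log2 change was -0.55 against 0.01 over all genes. In bulk tissue fewer cells of a type and less RNA per cell cannot be told apart. The summed level of the list was 17490 ± 1180 CPM at 6 months (SD, n = 4) and 25660 ± 3050 CPM at 1.5 months (n = 5), with no overlap between the ages (exact permutation test, two-sided, p = 0.00794, the smallest this design can give, and 0.0794 adjusted over 20 measures). Without the 6-month pair 7 of the 25 fell, where 0.238% of all genes fell.

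Ugt8a, the enzyme that adds galactose to ceramide to make the galactolipids of myelin, lies at chr3:125865271-125938619 in GRCm38. It was at 306, 472, 502, 274 and 375 CPM at 1.5 months and at 141, 156, 137 and 125 CPM at 6 months. Every 6-month library lay below every 1.5-month one, and the log2 change was -1.47 ± 0.20 (SE, adjusted p = 7.84e-05). Mal, a raft protein of myelin membranes, was at 846.5, 1072, 1165, 807 and 802 CPM at 1.5 months and at 488, 450, 415 and 413 CPM at 6 months. It fell by 1.09 and Mog, a glycoprotein of the outer myelin face, by 1.06 on the log2 scale. The transmembrane proteins Tspan2 and Cldn11 fell by 0.92 and 0.78. The spread was wide at 1.5 months, with replicates 2 and 3 highest for Ugt8a, Mal and Mog, and narrow at 6 months.

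Gpr17, a receptor of oligodendrocyte precursors about to mature, was at 47.9, 76.2, 80.9, 77.0 and 71.3 CPM at 1.5 months and at 35.8, 34.0, 38.1 and 33.9 CPM at 6 months, a log2 change of -0.996 ± 0.20 (adjusted p = 0.00302, and 0.071 without the pair). It was 1 of 2 precursor genes called of 16, the other being Vcan (1 to 5 as single libraries were left out), where 2.2% of all genes fell. Myelin genes of controls fell as well: 12 of the 25 were called lower, where 5.37% of all genes were. Their median log2 change was -0.37, and the difference between genotypes was called for none of them. Ugt8a went from 624 ± 119 CPM (SD, n = 6) to 253 ± 61.5 CPM (n = 5) in controls, a log2 change of -1.30. Mal went from 1248 ± 194 to 536 ± 66.9 CPM.

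Schwann cells, which myelinate the nerve roots, gave a wider spread. Pmp22, a membrane protein of peripheral myelin, fell by 0.92. Of 17 Schwann cell genes, 3 fell and 2 rose, where 2.2% of all genes fell and 2.59% rose, and 1 of the 2 was Ngfr, set apart above. Without 1.5-month replicate 4, 4 rose, without 6-month replicate 3 none did, without 1.5-month replicate 1, 5 fell, and without the pair none of the 17 was called. Pmp22 was not called without the 6-month pair (adjusted p = 0.0886). The list's summed level was 3716 ± 600 CPM at 6 months against 6066 ± 1480 CPM at 1.5 months (exact permutation p = 0.0397, adjusted 0.132). Of the 17 genes, 11 had a log2 change above 0 and 6 below, with a median of 0.08. By the same permutation test p was 0.0286 without 1.5-month replicate 1, and 0.107 to 0.125 without any other single transgenic library. How much nerve root each sample held was not tested.

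Genes of cholesterol synthesis fell as well. Of 27 tested genes of the pathway 10 fell and none rose, at a median log2 change of -0.26, where 2.2% of all genes fell. Those that fell run along the pathway from Hmgcs1 near its start through Idi1, Sqle, Lss, Cyp51, Msmo1, Nsdhl and Sc5d to Dhcr7. In 10 of the 27 tested, every 6-month library lay below every 1.5-month library, which held for 2.77% of all genes. Among the 10 called, which were picked from these same libraries, it held for all but Lss. In controls 15 of the 27 fell (median -0.34), where 5.37% of all genes did, and the difference between genotypes was called for none. Without the 6-month pair 3 were called, Hmgcs1, Cyp51 and Msmo1, where 0.238% of all genes fell.

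Promoters of these 3 genes are shown because all carry the CCAAT box, the site read by the factor NF-Y, near the start of transcription. The 250 bases before the start are from RefSeq (GRCm38.p6), written 5′ to 3′ on the gene's strand, with CCAAT on either strand and, in Hmgcs1, the sterol regulatory element pattern TCACNCCAC in capitals.
Hmgcs1, chr13:119690101-119690350, plus strand: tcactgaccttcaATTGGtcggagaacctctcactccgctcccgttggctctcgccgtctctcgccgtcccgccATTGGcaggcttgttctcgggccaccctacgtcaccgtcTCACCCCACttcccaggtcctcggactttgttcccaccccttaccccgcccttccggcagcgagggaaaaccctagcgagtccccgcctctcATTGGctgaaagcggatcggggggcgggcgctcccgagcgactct
Cyp51, chr5:4104698-4104947, minus strand: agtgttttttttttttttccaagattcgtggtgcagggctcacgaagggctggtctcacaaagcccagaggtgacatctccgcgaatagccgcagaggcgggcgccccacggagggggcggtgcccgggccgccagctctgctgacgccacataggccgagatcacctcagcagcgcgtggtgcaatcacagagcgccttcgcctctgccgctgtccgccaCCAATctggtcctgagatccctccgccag
Msmo1, chr8:64733579-64733828, minus strand: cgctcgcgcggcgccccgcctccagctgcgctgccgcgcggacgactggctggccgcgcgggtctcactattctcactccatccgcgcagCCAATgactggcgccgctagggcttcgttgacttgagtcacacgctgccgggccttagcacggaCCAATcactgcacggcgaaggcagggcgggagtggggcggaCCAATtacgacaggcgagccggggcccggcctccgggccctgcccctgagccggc
Hmgcs1 and Msmo1 held 3 CCAAT boxes each and Cyp51 held 1. Over the 19 pathway genes with an entry in the table, 17 held CCAAT on either strand in this window, which 33.8% of all 32851 promoters did. The pattern TCACNCCAC was in 1 of the 19, Hmgcs1, and in 1.05% of all promoters. A match describes the letters and is no evidence of binding.

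Hmgcs1, which makes the first dedicated precursor of the pathway, was at 445, 587, 626, 462 and 421 CPM at 1.5 months and at 327, 286, 295 and 235 CPM at 6 months. The log2 change was -0.83 ± 0.13 (adjusted p = 0.000227) in transgenic cord and -0.93 in controls, and 12.1% of its exon bases overlap a gene model on the opposite strand. Cyp51 was at 154, 182, 190, 142 and 139 CPM and then at 115, 99.2, 92.9 and 95.4 CPM, a log2 change of -0.68 ± 0.10 (adjusted p = 0.000121). Cyp51 removes a methyl group from lanosterol, and Msmo1 acts after it. Msmo1 fell by 0.71. As for myelin, 1.5-month replicates 2 and 3 were the highest for each of these genes.

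Fatty acid genes moved the same way in part: 5 of 19 fell and none rose, where 2.2% of all genes fell. In controls 6 fell and 1 rose, where 5.37% of all genes fell and 4.92% rose (7 and 3 with the block). Acss2, which makes acetyl-CoA from acetate, was at 114, 123, 123, 105 and 105 CPM at 1.5 months and at 81.4, 84.97, 92.6 and 83.7 CPM at 6 months, a log2 change of -0.41 ± 0.06 (adjusted p = 0.000213). Elovl6, which lengthens fatty acids, fell by 0.63, and was not called without the pair (adjusted p = 0.0587). The count was 8 lower and 3 higher without 1.5-month replicate 4, and 2 were higher without 6-month replicate 1. Without the pair 2 were lower, and none was called when only the 9 libraries set the spread.

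**Figure D2:**
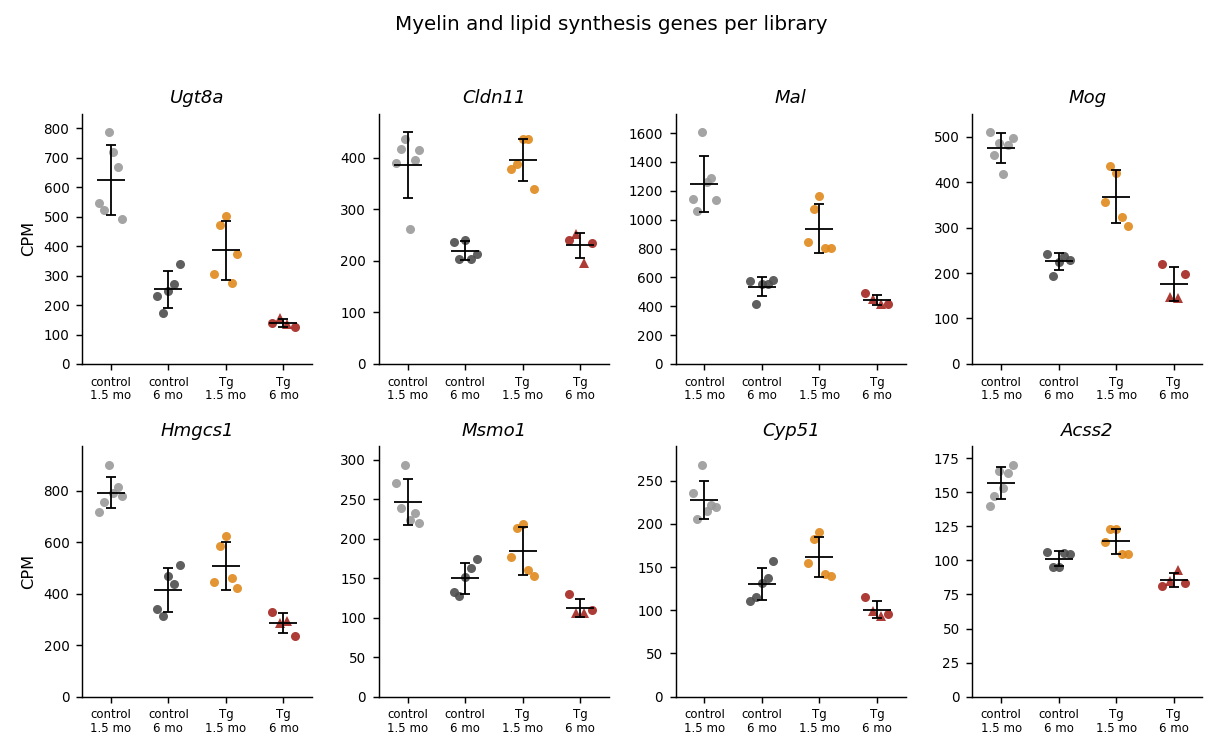
CPM (linear axes from 0) of 4 myelin genes and 4 lipid synthesis genes in each library of control and transgenic (Tg) cord at 1.5 and 6 months (mo); bars are mean and SD, and triangles are 6-month transgenic replicates 2 and 3. The 4 transgenic libraries at 6 months lie below the 5 at 1.5 months in every panel, with Ugt8a at 125 to 156 CPM against 274 to 502 CPM.

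Some microglial genes fell in transgenic cord and rose in controls. Of 25 genes of disease-associated microglia, 8 fell and none rose in transgenic cord (median log2 change -0.26), where 2.2% of all genes fell. In controls 6 rose and 1 fell (median 0.30), where 4.92% of all genes rose and 5.37% fell. The difference between genotypes was called lower in transgenic cord for 4 of the 25, Itgax, Clec7a, Cd68 and Trem2, where 0.0749% of all genes were called lower. The transgenic calls rested on all libraries together: none of the 8 was called without 6-month replicates 2 and 3, although the median stayed below 0 at -0.37. The count was 5 without 1.5-month replicate 2, 3 without 1.5-month replicate 3 and 4, 3 and 4 without 6-month replicates 2, 3 and 4 in turn. The list's summed level was 6775 ± 196 CPM at 6 months and 6912 ± 497 CPM at 1.5 months (exact permutation p = 0.786).

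Itgax, the integrin CD11c, lies at chr7:128129547-128150657. It was at 6.41, 11.02, 12.0, 5.21 and 5.53 CPM at 1.5 months and at 2.66, 1.18, 1.02 and 1.29 CPM at 6 months, with no overlap. Its log2 change was -2.39 ± 0.42 (adjusted p = 0.00113), and 1.04 in controls (adjusted p = 0.0825), where it went from 0.531 ± 0.191 (SD, n = 6) to 1.12 ± 1.04 CPM (n = 5). The difference was -3.42 ± 0.57 (SE, adjusted p = 0.00576). Cst7, an inhibitor of lysosomal cathepsins, was at 2.44, 3.40, 3.53, 2.1045 and 2.20 CPM and then at 0.596, 0.657, 0.376 and 0.403 CPM, a log2 change of -2.44 ± 0.55 (adjusted p = 0.00921). Clec7a, the receptor dectin-1 for fungal glucans, was at 8.45, 12.3, 11.7, 4.53 and 8.43 CPM and then at 2.98, 3.88, 3.03 and 2.74 CPM, a log2 change of -1.53 ± 0.31 (adjusted p = 0.00448). Leaving out any single library kept the calls of Itgax, Cst7 and Clec7a, and leaving out the pair did not: the adjusted p was then 0.0896, 0.15 and 0.0721.

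Trem2, the lipid receptor that microglia need to reach the disease-associated state, was at 28.1, 27.6, 34.1, 30.9 and 24.4 CPM at 1.5 months and at 22.6, 19.1, 14.3 and 19.1 CPM at 6 months. The change was, on the log2 scale, -0.63 ± 0.17 (adjusted p = 0.033) and 0.75 in controls (adjusted p = 0.0035), a difference of -1.38 ± 0.24 (adjusted p = 0.00576). Cd68, a lysosomal glycoprotein of phagocytes, fell by 0.67 in transgenic cord and rose by 0.70 in controls. Lpl, lipoprotein lipase, was at 40.5 CPM in 1.5-month replicate 3 and at 10.98 to 16.5 CPM in the other 4, and then at 6.15 to 10.3 CPM. Its log2 change was -1.23 ± 0.32 (adjusted p = 0.0235), and it was not called without that library or without any 1 of 6-month replicates 2, 3 and 4. Trem2 was not called without any 1 of 1.5-month replicates 2 and 3 or 6-month replicates 2, 3 and 4, and Cd68 without 1.5-month replicate 3 or 6-month replicate 3.

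Few genes of resting microglia were called. Of 16 such genes 2 fell, Fcrls among them, where 2.2% of all genes fell, with a median log2 change of -0.17. In controls 4 rose (median 0.35), where 4.92% of all genes did. The transgenic count ran from 1 to 4 as single libraries were left out (1 without 1.5-month replicate 3 or 6-month replicates 2, 3 or 4, and 4 without 1.5-month replicate 4). Their summed level was 377 ± 29.5 CPM at 6 months (SD, n = 4) and 443 ± 30.2 CPM at 1.5 months (n = 5; exact permutation p = 0.0238, adjusted 0.119). Fcrls, an Fc receptor-like molecule used as a mouse microglial marker, was at 6.97, 11.2, 9.30, 7.75 and 8.41 CPM at 1.5 months and at 1.70, 2.46, 2.06 and 1.64 CPM at 6 months. Between the ages its log2 change was -2.16 ± 0.25 (adjusted p = 6.29e-06, and 0.000661 without the pair). In controls it was at 4.01 ± 1.41 CPM (n = 6) and 3.64 ± 0.669 CPM (n = 5), and the difference was -2.02 ± 0.33 (adjusted p = 0.00576). Without the pair this difference had the lowest adjusted p of all genes together with Chfr, 0.0520. Mpeg1, a pore-forming protein of macrophages, fell by 0.91 (adjusted p = 0.0177) and rose by 0.87 in controls. Mpeg1 was not called without 1.5-month replicate 3 or without any 1 of 6-month replicates 2, 3 and 4.

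Of 23 cytokines and chemokines, 4 fell and Cxcl13 rose, where 2.2% of all genes fell and 2.59% rose. Ccl3 and Ccl4, which attract macrophages and T cells, were low throughout. Ccl3 was at 2.32, 3.55, 3.75, 2.31 and 3.24 CPM and then at 1.17, 0.711, 0.553 and 0.711 CPM, a log2 change of -1.95 ± 0.44 (adjusted p = 0.00951). Ccl4 fell by 1.18 (adjusted p = 0.0416) in transgenic cord and rose by 1.76 in controls, from 0.133 ± 0.0538 to 0.462 ± 0.359 CPM. The differences were -3.19 ± 0.62 for Ccl3 and -2.93 ± 0.51 for Ccl4 (adjusted p = 0.0218 and 0.00576). The 4 lower calls were 0 without 6-month replicate 3 and 2 without 1.5-month replicate 2 or 3. The rise of Cxcl13 was lost without any 1 of 1.5-month replicates 1, 2 and 3 or 6-month replicate 2. Without the pair none of the 23 was called.

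The levels at 6 months lay near those of controls for several of these genes and not for others. Transgenic and control means at 6 months were 1.54 ± 0.76 (SD, n = 4) and 1.12 ± 1.04 CPM (n = 5) for Itgax, 3.16 ± 0.50 and 3.03 ± 2.05 CPM for Clec7a, and 18.8 ± 3.40 and 13.6 ± 3.47 CPM for Trem2. At 10-12 months, in 6 libraries of each genotype, Itgax was at 2.81 ± 0.61 CPM in transgenic and 0.92 ± 0.28 CPM in control cord. Trem2 was at 23.05 ± 5.12 and 12.8 ± 2.71 CPM at that age. These levels are given side by side, and the genotypes were not compared at a single age here.

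**Figure D3:**
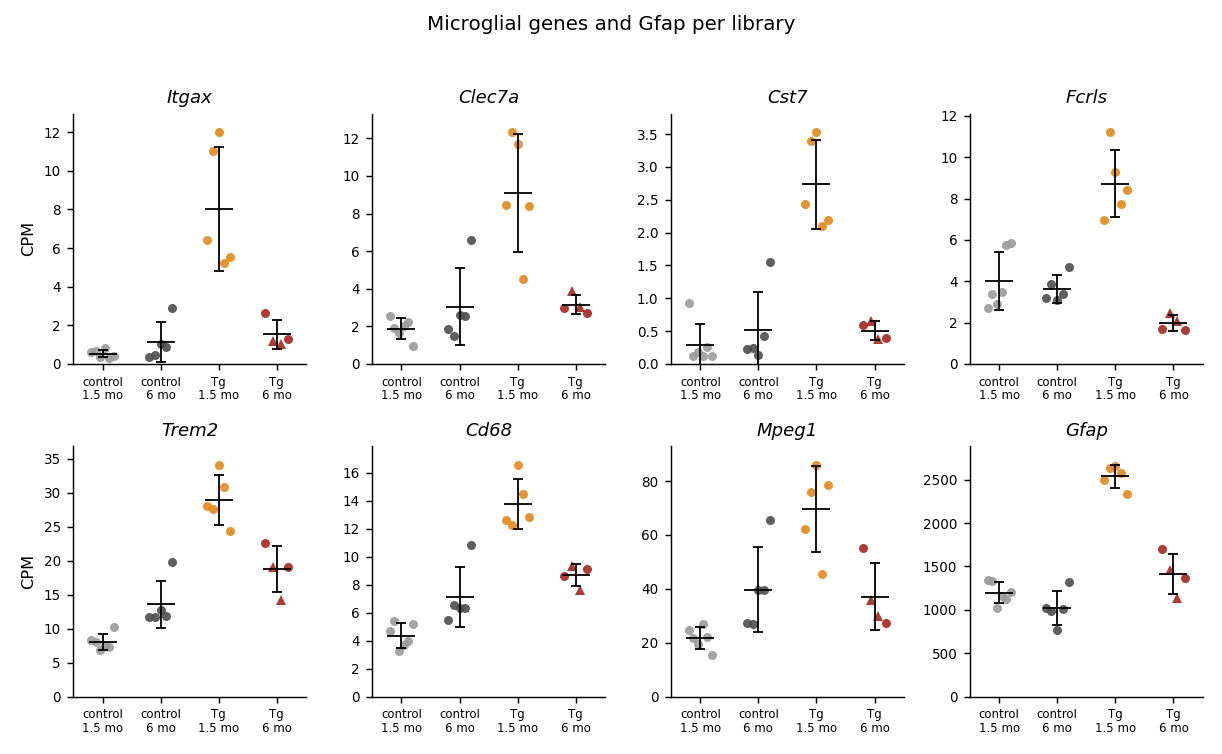
CPM (linear axes from 0) of 7 microglial genes and Gfap in each library of control and transgenic (Tg) cord at 1.5 and 6 months (mo); bars are mean and SD, and triangles are 6-month transgenic replicates 2 and 3. Itgax, Clec7a and Cst7 are highest in the 1.5-month transgenic libraries, where Itgax stands at 5.21 to 12.0 CPM against 1.02 to 2.66 CPM at 6 months.

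Astrocyte genes fell in part. Gfap, at chr11:102887336-102900912, was at 2490.0, 2631, 2657, 2574 and 2331 CPM at 1.5 months and at 1699, 1459.5, 1140.5 and 1367 CPM at 6 months. Its log2 change was -0.84 ± 0.11 (adjusted p = 5.58e-05, and 0.0125 without the pair). In controls it went from 1197 ± 123 to 1023 ± 197 CPM (adjusted p = 0.135), and the difference of -0.61 ± 0.15 was not called (adjusted p = 0.0998). Ptx3, a secreted pentraxin of reacting astrocytes, fell by 1.11 (adjusted p = 0.00252). These were the 2 of 24 reactive astrocyte genes that fell, and Amigo2 rose, where 2.2% of all genes fell and 2.59% rose. The rise was lost without any 1 of 1.5-month replicates 1, 2, 3 and 5 or 6-month replicates 2 and 3. Without 6-month replicate 1, 4 of the 24 rose, and without the pair 1 fell and none rose. Among 19 general astrocyte genes 4 fell and none rose: Aqp4, the water channel of their endfeet, by 0.98, Kcnj10, their main potassium channel, by 0.47, and Slc1a2 and Atp1b2. Without 1.5-month replicate 4, 7 fell and 2 rose. Without the pair none of the 19 was called, and the median log2 change went from -0.11 to 0.04. In controls 2 of the 19 fell, where 5.37% of all genes did. With the block 4 fell and 1 rose, and Aqp4 and Kcnj10 were then called in controls too (adjusted p = 0.0308 and 0.0179). The summed level of the 19 genes was 9267 ± 729 CPM at 6 months (n = 4) and 10650 ± 437 CPM at 1.5 months (n = 5; exact permutation p = 0.00794, adjusted 0.0794). This difference of -1387 CPM was -804.4 CPM without the pair (exact permutation p = 0.0952). Neither Aqp4 nor Kcnj10 was called without the pair (adjusted p = 0.0913 and 0.102), and neither was Ptx3 (0.0681).

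Genes of antigen presentation on MHC class I rose. Of 16 tested genes 10 rose and none fell (median log2 change 0.72), against 2.59% of all genes. The 10 that rose were H2-D1, H2-Q4, H2-Q6, H2-Q7, H2-T23, H2-M3, Tap1, Tap2, Psmb8 and Psmb9. In 12 of the 16 every 6-month library lay above every 1.5-month library, which held for 2.93% of all genes. In controls 4 of the 16 rose (median 0.45), where 4.92% of all genes did. With the block 2 rose, when H2-M3, Psmb8 and Psmb9 missed the threshold at adjusted p = 0.0564, 0.0534 and 0.0679. The difference between genotypes was called for none of the 16. Without the 6-month pair 7 rose (median 0.91), where 0.185% of all genes rose, and 6 rose without 1.5-month replicate 2. All 12 genes of MHC class II presentation missed the threshold (median 0.26), and of 30 interferon response genes 2 rose, the same Psmb8 and Psmb9. Without 1.5-month replicate 4, 8 interferon genes were called lower and 2 class II genes higher, and without 6-month replicate 1, 1 class II gene was called lower.

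The H2 genes are near copies of each other, so reads can be split or lost between them and single values are uncertain. Promoters of 3 are shown for their likeness, again the 250 bases before the start from RefSeq (GRCm38.p6), with CCAAT on either strand in capitals.
H2-D1, chr17:35262844-35263093, plus strand: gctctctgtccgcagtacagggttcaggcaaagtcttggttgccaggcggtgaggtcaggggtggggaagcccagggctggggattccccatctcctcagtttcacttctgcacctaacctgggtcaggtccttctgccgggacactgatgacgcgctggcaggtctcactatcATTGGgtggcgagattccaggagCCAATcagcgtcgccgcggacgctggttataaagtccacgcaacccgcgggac
H2-Q4, chr17:35379367-35379616, plus strand: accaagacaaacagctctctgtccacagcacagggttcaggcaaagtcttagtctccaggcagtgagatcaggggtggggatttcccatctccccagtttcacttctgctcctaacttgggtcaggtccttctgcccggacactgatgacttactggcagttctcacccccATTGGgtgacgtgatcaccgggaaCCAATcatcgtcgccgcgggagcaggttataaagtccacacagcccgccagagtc
H2-Q7, chr17:35438905-35439154, plus strand: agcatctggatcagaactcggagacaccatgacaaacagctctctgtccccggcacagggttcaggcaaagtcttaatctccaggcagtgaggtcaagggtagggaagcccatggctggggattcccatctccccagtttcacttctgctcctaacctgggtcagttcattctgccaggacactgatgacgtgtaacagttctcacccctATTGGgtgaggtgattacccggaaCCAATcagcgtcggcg
Each held 2 CCAAT boxes. In a global alignment 86.3% of aligned bases were identical between H2-D1 and H2-Q4, 85.8% between H2-D1 and H2-Q7, and 89.5% between H2-Q4 and H2-Q7. Of the 14 genes of the list with an entry, 11 held CCAAT on either strand.

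H2-D1, a classical class I heavy chain, was at 301, 297, 250, 297 and 311 CPM at 1.5 months and at 504, 426, 399 and 485 CPM at 6 months. Every 6-month library was higher, and the log2 change was 0.64 ± 0.14 (adjusted p = 0.00714) against 0.20 in controls (adjusted p = 0.294). H2-Q4 was at 11.1, 12.2, 10.6, 13.4 and 14.7 CPM and then at 39.3, 19.4, 17.6 and 30.1 CPM, a log2 change of 1.10 ± 0.25 (adjusted p = 0.0105), and shares 19.1% of its exon bases with a gene model on the opposite strand. H2-Q7 was at 4.28, 4.21, 4.12, 6.41 and 5.88 CPM and then at 18.7, 9.38, 8.58 and 14.7 CPM, a log2 change of 1.37 ± 0.32 (adjusted p = 0.0108). The 6-month replicates 1 and 4, which lacked sensory ganglion transcripts, were the higher 2 of the 4 for all of these. The non-classical H2-T23 and H2-M3 rose by 0.74 and 0.54. H2-Q4, H2-T23 and H2-M3 were not called when only the 9 libraries set the spread. H2-D1 and H2-T23 were not called without the pair after the GC correction.

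Psmb8 and Psmb9, subunits of the immunoproteasome that cuts peptides for class I, rose as well. Psmb8 was at 6.30, 7.98, 7.90, 9.27 and 8.04 CPM and then at 21.5, 13.4, 13.5 and 16.1 CPM, a log2 change of 1.03 ± 0.23 (adjusted p = 0.00951), and 0.76 in controls (adjusted p = 0.0222). An opposite-strand gene model covers 14.7% of the exon bases of Psmb8. Psmb9 rose by 1.16 (adjusted p = 0.0138), and was not called without 1.5-month replicate 2. Most of these genes lie together: of 187 tested genes between 33 and 38 Mb of chromosome 17, 21 rose (11.2%), against 2.51% of genes elsewhere, 1 fell, and 17 rose in controls. The strains of the mixed background differ in this region, and which alleles each mouse carried was not tested.

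C4b, the complement component C4, lies in the same region at chr17:34728380-34743882 beside its near copy C4a. It was at 109, 83.3, 83.8, 123 and 110 CPM at 1.5 months and at 162, 202, 142 and 214 CPM at 6 months, a log2 change of 0.82 ± 0.15 (adjusted p = 0.00138). When only the 9 libraries set the spread it was not called. In controls it rose by 0.76, from 39.0 ± 6.45 (SD, n = 6) to 66.0 ± 5.79 CPM (n = 5). Of 18 complement genes C4b rose and C3ar1 and Cd59a fell, where 2.59% of all genes rose and 2.2% fell. In controls 6 rose, where 4.92% of all genes did (5 rose and 2 fell with the block). The lower transgenic calls were 0 without 1.5-month replicate 3 and 1 without any 1 of 1.5-month replicates 1, 2 and 5 or 6-month replicates 1, 3 and 4. The higher calls were 3 without 1.5-month replicate 4 or 6-month replicate 1. Without the pair 1 rose and none fell.

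**Figure D4:**
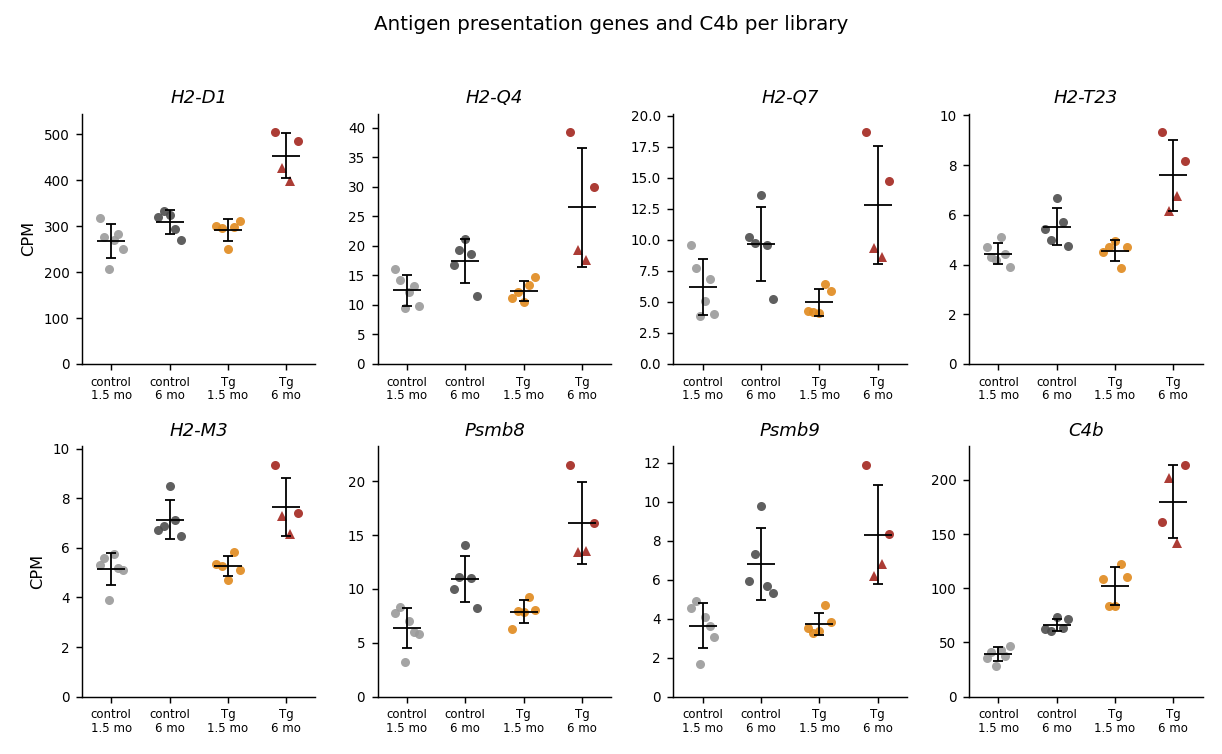
CPM (linear axes from 0) of 7 antigen presentation genes and C4b in each library of control and transgenic (Tg) cord at 1.5 and 6 months (mo); bars are mean and SD, and triangles are 6-month transgenic replicates 2 and 3. The transgenic 6-month libraries lie above the 1.5-month ones in every panel, and replicates 2 and 3 are the lower pair for H2-Q4 and H2-Q7.

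Neurofilament genes, which set the calibre of large axons, were lower at 6 months. Nefm, the medium chain, was at 1784, 1894.5, 2430.0, 1923.5 and 1827 CPM at 1.5 months and at 1291, 1626, 1434 and 1101 CPM at 6 months, a log2 change of -0.53 ± 0.10 (adjusted p = 0.00278). The light chain Nefl and the heavy chain Nefh fell by 0.32 and 0.35 (adjusted p = 0.0381 and 0.0497). Replicates 2 and 3, which held ganglion transcripts, were the higher 2 of the 6-month libraries for all 3 chains. Without that pair the changes were larger, at -0.52 for Nefl, -0.74 for Nefm and -0.62 for Nefh (adjusted p = 0.0175, 0.00434 and 0.0171). Nefl and Nefh were not called without any 1 of 1.5-month replicates 1, 2 and 3 or 6-month replicates 1 and 4, and Nefl and Nefm share 1108 exon bases on opposite strands. Nefl was not called after GC content and length were corrected for (adjusted p = 0.0762), and none of the 3 chains was called when only the 9 libraries set the spread (adjusted p = 0.141, 0.0891 and 0.149 for Nefl, Nefm and Nefh). In controls Nefm fell by 0.30. Nefh changed by -0.27 there and was not called (adjusted p = 0.0669), and with the block it was called at -0.26 (adjusted p = 0.0382).

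Chodl, a marker of fast motor neurons, was at 45.9, 47.6, 63.3, 41.7 and 38.3 CPM at 1.5 months and at 29.2, 29.8, 18.5 and 21.1 CPM at 6 months, a log2 change of -0.94 ± 0.21 (adjusted p = 0.00767, and 0.126 without the pair). It was not called without 6-month replicate 3. Over all genes 2.2% fell and 2.59% rose. Of 20 motor neuron genes 3 fell, Chodl, Nefm and Nefh, and 3 rose, Isl1, Isl2 and Prph, all 3 of them set apart. The higher calls were 1 without 1.5-month replicate 2 or 6-month replicate 2, 0 without 6-month replicate 3 and 5 without 6-month replicate 1, and 5 fell without 1.5-month replicate 4.

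Matrix genes fell in small number. Of 32 collagen and matrix genes 6 fell and none rose, where 2.2% of all genes fell. In controls 8 fell, where 5.37% of all genes did. The transgenic count was 2 without 1.5-month replicate 2 or 3 or 6-month replicate 1 or 2, and 3 without 6-month replicate 3. Col3a1, a fibrillar collagen, was at 49.5, 129, 103, 96.8 and 93.0 CPM and then at 24.9, 36.9, 76.9 and 34.9 CPM, with 6-month replicate 3 above 1.5-month replicate 1. The change was, on the log2 scale, -1.12 ± 0.25 (adjusted p = 0.00921) and -1.67 without the pair, and -1.24 in controls. Loxl2, which crosslinks collagen, fell by 0.73. Ncan, the brain proteoglycan neurocan, was at 73.1, 69.2, 69.3, 60.1 and 63.3 CPM and then at 42.2, 32.3, 35.2 and 37.7 CPM, a log2 change of -0.86 ± 0.10 (adjusted p = 6.09e-06), and -0.47 in controls. Nrep, a protein of developing neurons, fell by 0.68, and by 0.55 in controls.

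Among the other genes called with and without the pair, the largest rise was in Inmt, an enzyme that methylates indoles. It was at 0.827, 0.496, 0.348, 0.950 and 0.486 CPM at 1.5 months and at 2.68, 1.86, 3.05 and 4.90 CPM at 6 months, a log2 change of 2.34 ± 0.32 (adjusted p = 6.7e-05), and 1.92 in controls. Ass1, an enzyme of arginine synthesis, rose by 0.80 and by 0.75 in controls. Zbtb42, a zinc finger protein, rose by 1.13 and by 0.90 in controls, and was not called when only the 9 libraries set the spread. Ttll3, a tubulin glycylase of cilia, and Tekt1, a protein of ciliary microtubules, rose by 1.07 and 0.77, with control changes of 0.25 and 0.20 that were not called. From the 9 libraries alone Tekt1 was not called, and Ttll3 shares 5.61% of its exon bases with Arpc4 on the same strand. The summed level of 13 ependymal markers, of the ciliated cells that line the central canal, was 129 ± 4.9 CPM at 6 months and 110 ± 12.4 CPM at 1.5 months (exact permutation p = 0.0397, adjusted 0.132), and its part in these 2 genes was not tested.

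Of the genes that fell, Rab7b, a small GTPase of late endosomes, was at 9.20, 13.4, 12.5, 10.6 and 10.6 CPM and then at 3.77, 4.29, 5.70 and 3.76 CPM. Its log2 change was -1.37 ± 0.15 (adjusted p = 3.79e-06, and 4.99e-05 without the pair), and -1.02 in controls. Hpgd, which inactivates prostaglandins, fell by 1.07, with a control change of -0.33 that was not called (adjusted p = 0.201). Srd5a1, the steroid 5-alpha-reductase of brain, fell by 0.75 and by 0.79 in controls, and shares 16.4% of its exon bases with a gene model on the same strand.

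Vill, a relative of the actin-binding protein villin, rose relative to controls, as 0.0799% of all genes did. It was at 1.63, 0.975, 1.67, 1.36 and 1.51 CPM at 1.5 months and at 3.32, 4.32, 6.77 and 5.13 CPM at 6 months, a log2 change of 1.77 ± 0.22 (adjusted p = 1.22e-05). In controls it stood at 2.09 ± 0.422 CPM (SD, n = 6) and 2.16 ± 0.440 CPM (n = 5), and the difference was 1.72 ± 0.30 (adjusted p = 0.00576). Chfr, a mitotic checkpoint ligase, was not called in transgenic cord, at 53.6 to 59.9 CPM and then at 55.6 to 66.4 CPM, and fell by 0.38 in controls, a difference of 0.46 ± 0.08 (adjusted p = 0.00576). Dzip1l, a ciliary protein, Chka, the choline kinase that starts phosphatidylcholine synthesis, and Ccnl2, a cyclin tied to splicing, gave differences of 0.55, 0.50 and 0.45 in the same way, from falls of 0.43, 0.46 and 0.37 in controls beside transgenic changes of 0.12, 0.04 and 0.08 that were not called.

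**Figure D5:**
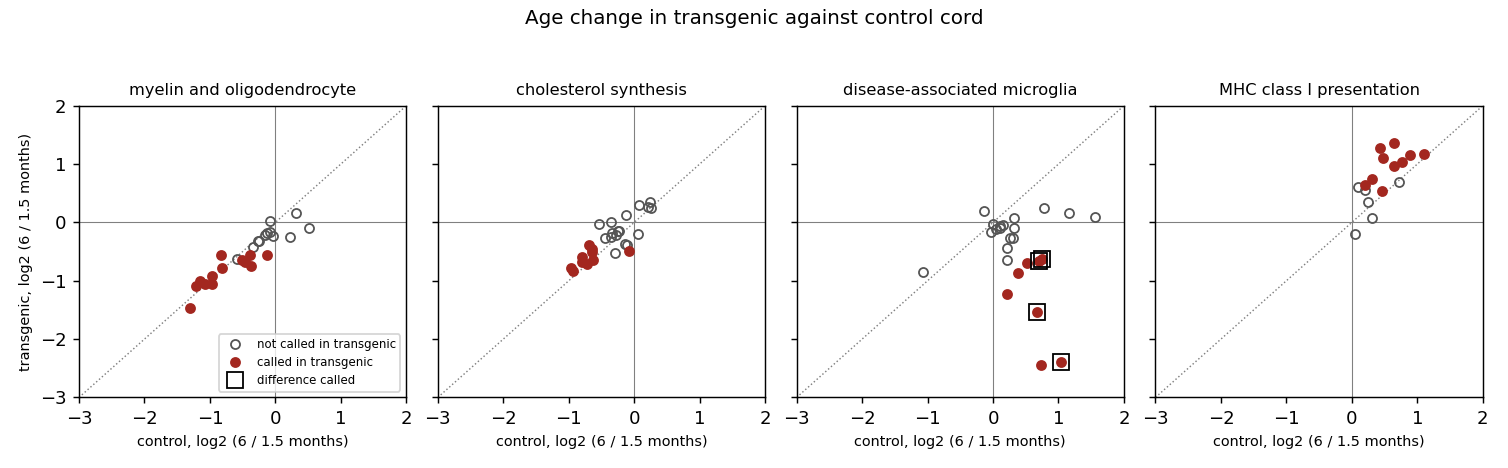
Log2 change from 1.5 to 6 months in transgenic cord (y axis) against that in control cord (x axis) for the members of 4 gene lists; filled points passed the threshold in transgenic cord, squares mark a called difference between genotypes, and the dotted line marks equal change. Myelin and cholesterol genes lie along the line, most disease-associated microglial genes lie below it, and 10 of 16 MHC class I genes are filled above 0.

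Several groups gave no call or few. None of the tested members passed for oxidative phosphorylation (36 genes, median log2 change 0.05), heat shock (16), synaptic inhibition (24), endothelial cells (16), pericytes (13), ependymal cells (13), lymphocytes (20) or the glucocorticoid response (20). Without 1.5-month replicate 4 each of these groups had calls: 5 rose and 1 fell for oxidative phosphorylation, 3 rose and 4 fell for synaptic inhibition, 3 rose and 2 fell for pericytes, 2 rose and 1 fell for lymphocytes, 3 rose for ependymal and 2 for endothelial cells, and 5 fell for heat shock and 1 for the glucocorticoid response. Without 6-month replicate 1, 1 gene of synaptic inhibition fell, 1 endothelial gene rose, and 1 pericyte gene rose and 2 fell. Of 26 genes of the ESCRT machinery, to which CHMP2B belongs, Chmp5 fell, by 0.19 (not called in 7 of the 9 fits that left out a library), and of 35 lysosomal genes 4 fell and 1 rose. Over all genes 2.59% rose and 2.2% fell. Of 20 autophagy genes 1 rose, and of 29 genes linked to amyotrophic lateral sclerosis or frontotemporal dementia 1, Nek1, fell. These few calls rested on single libraries, and without the pair none was left in any of these 4 groups. The 4 lower lysosomal calls were 2 without 1.5-month replicate 2 or 6-month replicate 3 or 4, and 1 without 1.5-month replicate 3 or 6-month replicate 2. The lysosomal rise was lost without any 1 of 1.5-month replicates 2, 3 and 5 or 6-month replicates 2, 3 and 4, the autophagy rise without 1.5-month replicate 2 or 6-month replicate 2 or 3, and Nek1 without 1.5-month replicate 2 or 3 or 6-month replicate 2, 3 or 4. Without 1.5-month replicate 4, by contrast, 3 lysosomal and 4 autophagy genes rose, and 4 ESCRT genes fell and 2 rose. A value that missed the threshold does not show that a gene stayed level.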

How the data were processed

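RNA from spinal cord of the 9 transgenic libraries, and of 11 control libraries for comparison, had been made into stranded mRNA libraries from 500 ng of total RNA, per the labels' protocols. The authors deposited whole-number counts of reads per gene. Per the submitters' processing notes the tools named are bcl2fastq 2.17.1.14, TopHat2 2.0.14, Bowtie2 2.1.0 and HTSeq 0.6.1, with the genome build mm10. Neither the strand setting nor the annotation release of the counting could be found, so reads in exons shared by 2 genes cannot be assigned with certainty.

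From the deposited counts, all of the following was computed here. Of 45706 genes listed, 45143 had a symbol in the GENCODE M21 annotation of GRCm38. All 32 libraries were fitted in edgeR 4.0.16 (R 4.3.3) with 1 term per genotype and age, after filterByExpr (minimum count 10, total 15) and TMM scaling. P-values were two-sided, adjusted over 20015 genes by Benjamini and Hochberg, with calls under 0.05. No count columns were identical.

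The members, the 46 gene lists and the promoter motifs were chosen with earlier results of these data known. Genes named were, by rule, 15 per direction with the most extreme change among those called both with and without 6-month replicates 2 and 3, not set apart, at a mean of 1 CPM or more, with groups that do not overlap, and neither gene models nor sex-linked; some of these are described, and some genes that the rule named are not reported here. The rule added up to 5 members of each list by lowest p, the 8 of lowest p in each direction for the difference, 8 set apart, and Chmp2b, Thy1 and Chrna2. Summed list levels were compared by exact permutation tests over 20 measures. The replicate numbers were not shown to pair the transgenic libraries (correlation of deviations 0.011, -0.034, 0.004 and 0.367 for same-numbered libraries of the 2 ages). Of the 4 libraries at 6 months, 1 correlated best with its own number, and pairing was not tested. In the controls the same-numbered libraries gave 0.146, 0.316, 0.132, 0.16 and 0.218. Whether these exceed the values for different numbers was not tested, so pairing of the controls is not shown. Their blocked count is therefore given only beside the plain one. Alternatives were other scaling, DESeq2 1.42.0, other filters, fewer libraries in the fit, the replicate block, a correction for GC content and length, each library left out, and the pair left out. The GC correction together with the pair left out was added after the data were seen.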

Additional observations from a re-analysis of the deposited data

Results flagged for a closer look

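Some libraries stood away from the rest of their group, with a gap to the nearest value that exceeded Dixon's 95% limit. These were 9 of 138 groups tested, where chance flags about 1 in 20. At 1.5 months Prph was at 117 CPM in replicate 4, Gpr17 at 47.9 CPM in replicate 1, Lpl at 40.5 CPM in replicate 3, H2-D1 at 250.4 CPM in replicate 3 and Nefm at 2430.0 CPM in replicate 3. The muscle gene Acta1 was at 78.0 CPM in 1.5-month replicate 3 and at 32.1 CPM in 6-month replicate 1. At 6 months Itgax was at 2.66 CPM in replicate 1, and Xist at 4.81 CPM in replicate 4.

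The age change differed between the genotypes by the test of the difference itself for 13 of the genes described. For microglial genes and chemokines the log2 age change was lower in transgenic cord: Itgax by -3.42, Ccl3 by -3.19, Ccl4 by -2.93, Clec7a by -2.20, Fcrls by -2.02, Mpeg1 by -1.77, Trem2 by -1.38 and Cd68 by -1.37 on the log2 scale. Vill was higher by 1.72, Dzip1l by 0.55, Chka by 0.50, Chfr by 0.46 and Ccnl2 by 0.45. Of these 13, the adjusted p was under 0.01 for Itgax, Fcrls, Cd68, Trem2, Mpeg1, Ccl4, Vill and Chfr, and between 0.0162 and 0.0342 for the rest.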

How the results depend on the processing

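The number of calls in transgenic cord was 959, and it was 1713 with DESeq2, 1540 after GC content and length were corrected for, 63 from the 9 libraries alone, 87 without 6-month replicates 2 and 3, and 259 without that pair after the GC correction. With replicate number as a block 1 gene was called, and 47 with the block and the GC correction together. Pairing of these libraries by number is not shown. With single libraries left out the count ran from 328 to 4322. In controls 2058 calls became 4437 with the replicate block, 3137 with the block and the GC correction, 3699 with the GC correction, and 1147 to 2933 with single libraries left out. The difference between genotypes, called for 31 genes, was called for 126 with DESeq2, 80 with the GC correction, 20 with no filter, 16 without the set-apart genes, 3 from the libraries of the comparison alone, 1 with the replicate block, 3 with the block and the GC correction, 0 without the pair, 5 without the pair after the GC correction, and 10 to 130 with single libraries left out. The cause of these shifts was not tested. A lower limit of 1.5 times set apart 343 genes and one of 4 times 59.

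Without the pair several set-apart genes changed sign, to log2 changes of -0.48 for Avil, -0.36 for Scn11a and -0.14 for Ngfr, and after the GC correction as well to -0.65, -0.24 and -0.43, and -0.32 for Prph. Changes that were not called also crossed 0: Thy1 was -0.14 after the GC correction, -0.17 with the block as well and -0.17 with that correction and without the pair, Dzip1l -0.0065 after the GC correction and -0.012 with the block as well, and Chrna2 -0.0014 with the block and the GC correction and -0.067 to 0.130 with single libraries left out. Summed levels moved too. Without the pair the Schwann cell difference was -2686 CPM, the astrocyte one -804.4 CPM and that of homeostatic microglia -60.03 CPM, each with an exact permutation p of 0.0952. With single libraries left out, Schwann cells ran from -2981 to -2007 CPM, homeostatic microglia from -78.5 to -56.89 CPM, sensory neurons from 328.4 to 872.9 CPM, and the mitochondrial share from -0.400 to -0.157 percentage points. Of 12 genes described whose difference was called and refitted (Ccl3 was not), 2 were still called from the libraries of the comparison alone and 3 without the pair after the GC correction. Not every 6-month library correlated best with its own number, as 1 of 4 did.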
